A study of Mus musculus with 6 samples.

Results

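The 36 aminoacyl-tRNA synthetase genes described here were chosen by symbol from 18956 genes in an RNA sequencing table of mouse lung endothelial cells. They comprise 20 genes of cytosolic enzymes and 16 genes of mitochondrial enzymes, whose symbols end in 2. All 36 were in the table, and all 36 passed the filter on low values (10 or more in 3 or more of the libraries). The table held 3 libraries labelled WT and Cre-negative, called WT 1 to 3, and 3 libraries labelled CSE-KO, which were Cre-positive and are called CSE-KO 1 to 3. CSE is cystathionine gamma-lyase, encoded by Cth, which splits cystathionine to yield cysteine. Cells of both groups were isolated lung endothelial cells. No label states the Cre driver, the deleted exons, the culture conditions, the ages of the mice or whether replicates came from separate animals, so p-values rest on the spread among these libraries alone and that spread may be technical.

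Aminoacyl-tRNA synthetases attach each amino acid to its own tRNA and so supply the ribosome with charged tRNA. The cytosolic enzymes serve translation of nuclear genes, and the mitochondrial enzymes, also encoded in the nucleus, serve the ribosomes that make the respiratory chain subunits of mitochondrial DNA. When tRNA lacks its amino acid, the kinase GCN2 slows translation initiation and favours synthesis of the transcription factor ATF4, and genes of many cytosolic synthetases are known ATF4 targets. Several cytosolic synthetases are bound in a large multisynthetase complex, while the others are free.

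Values are normalized counts, that is read counts scaled between libraries and rounded, as inferred from the table, and the values of a group are listed in the order of its libraries 1 to 3. Totals were 5698922 to 6052275 per library. The gene of the label, Cth, went against it: its value came to 29, 27 and 26 in the WT libraries against 49, 43 and 63 in the CSE-KO libraries (log2 fold change 0.89, SE 0.18, limma adjusted p = 0.00079). Reads from exons that a deletion would leave in place count toward this value, so it does not check the deletion, and groups are called by their labels. All 14 endothelial markers were present in both groups. Their summed value was 20891 to 21249 in the libraries labelled WT and 13502 to 14428 in those labelled CSE-KO, and 13 of the 14 fell. By the test described below, 38.3% of all genes tested were called upward and 39.0% downward, which stands beside each marker count here. Of 12 macrophage markers, 8 rose and 1 fell (10 tested). Their summed value went from 1037 to 1080 up to 1345 to 1558, although Cd14, which made most of the WT sum, fell from 779 to 239 on average. Adgre1, Itgam and Ptprc were listed at 0 in every WT library. The summed value of 4 mesothelial markers was 4 to 9 in WT and 104 to 157 in CSE-KO. That of 5 mural cell markers was 309 to 326 in WT and 861 to 991 in CSE-KO. Of these 4 rose, and Cspg4 fell (log2 fold change −3.32). That of 6 lymphatic markers was 14886 to 15172 in WT and 5513 to 7510 in CSE-KO. Of these 5 fell, and Pdpn rose (log2 fold change 0.15). The sum of 6 proliferation genes was 8162 to 8335 in WT and 1756 to 2844 in CSE-KO. These lists moved with every synthetase result given here, and their part in it was not tested. Of 6 fibroblast markers 1 rose and 2 fell, and their sum overlapped between groups (1246 to 1347 in WT, 1164 to 1492 in CSE-KO). CSE-KO 1 stood apart from CSE-KO 2 and 3. Spread between libraries was measured as the squared difference over the sum. Counting noise sets this measure at about 1 in raw counts, but scaling multiplies it by a factor that is unknown here. Among WT libraries it averaged 0.709 to 0.757 over all genes tested. It was 0.86 between CSE-KO 2 and 3 and 1.63 and 1.92 between CSE-KO 1 and these. The measure in genes with few reads per exonic base (under 0.01) averaged 0.933 to 0.99 among WT and 1.06 to 1.27 among CSE-KO libraries. The low WT average therefore came from genes with more reads per exonic base. Why their spread was narrow, and whether their SEs are too small, was not tested. In the genes with few reads a chi-square test found no difference among the WT libraries (p between 0.62 and 0.98) and one between CSE-KO 2 and 3 (p = 0.032). The libraries were counted as 3 per group, and log2 fold changes with WT 1 to 3, and CSE-KO 2 and 3, each averaged are given at the end. In bulk RNA, fewer cells of a type and less RNA per cell cannot be told apart.

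Most cytosolic synthetase genes were higher in the CSE-KO libraries, and the mitochondrial genes moved in both directions. Of the 20 cytosolic genes 18 rose and 2 fell, whereas of the 16 mitochondrial genes 4 rose, 7 fell and 5 did not pass the test. The call required a limma p under 0.05 after Benjamini-Hochberg adjustment over all 13750 genes tested, of which 77.4% were called, 38.3% upward and 39.0% downward. The median log2 fold change was 0.59 for the cytosolic genes (from −0.56 to 1.09) and −0.20 for the mitochondrial genes (from −0.91 to 0.63), against 0.001 for all genes tested. The summed value of the cytosolic genes came to 18166, 17629 and 17515 in the WT libraries against 25811, 26163 and 26436 in the CSE-KO libraries, a mean higher by 47.1%. That of the mitochondrial genes was 4809, 4829 and 4875 in WT and 3958, 3785 and 3747 in CSE-KO, where the mean decreased by 20.8%. Iars2 had the largest part in this fall: its mean went from 1190.3 to 635, within a mean sum that went from 4838 to 3830. The mitochondrial sum, and the ratio below that uses it, therefore do not stand for each gene of the list. Neither sum overlapped between groups. The ratio of the cytosolic to the mitochondrial sum was 3.67 ± 0.09 (SD, n = 3) in WT and 6.83 ± 0.28 (SD, n = 3) in CSE-KO. The genes were chosen with earlier results of these data known, so no p-value is given for the lists.

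**Figure D1:**
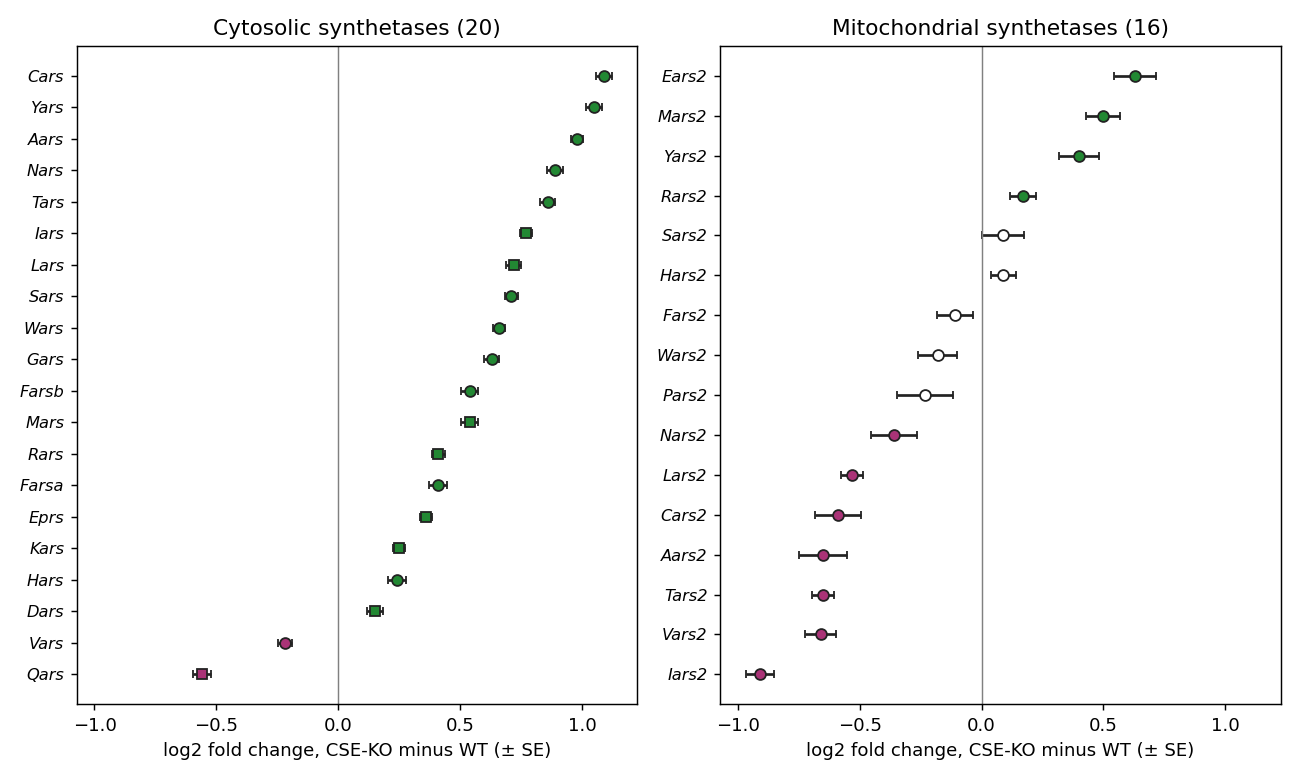
Log2 fold change of each synthetase gene (x axis, CSE-KO minus WT, bars ± SE from limma), cytosolic genes on the left and mitochondrial genes on the right, squares for members of the multisynthetase complex, filled points for called genes and open points for genes that did not pass. The cytosolic genes run from −0.56 (Qars) to 1.09 (Cars) with 18 of 20 above 0, and the mitochondrial genes run from −0.91 (Iars2) to 0.63 (Ears2).

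The largest cytosolic rises were in Cars, Yars and Aars. Cars, which charges cysteine tRNA (ENSMUSG00000010755, mm10 chromosome 7, 143557230 to 143600090, minus strand), read 750, 698 and 720 in the WT libraries against 1497, 1568 and 1562 in the CSE-KO libraries. Every CSE-KO library was above every WT library, and the ratio of means was 2.13 (log2 fold change 1.09, SE 0.03, adjusted p = 4.7e-10). Groups did not overlap, in either direction, in 80.4% of all genes tested, and this share stands beside every such statement below. Yars, the tyrosyl enzyme, a fragment of which is known as a signal for blood vessel growth, read 528, 512 and 506 in the WT libraries against 1032, 1078 and 1086 in the CSE-KO libraries (log2 fold change 1.05, SE 0.03). It lies on chromosome 4 (129189760 to 129219607). Aars, the alanyl enzyme on chromosome 8 (111033144 to 111057664), read 1155, 1133 and 1130 against 2192, 2252 and 2307 (log2 fold change 0.98, SE 0.02, adjusted p = 1.6e-10). Of the annotated exonic bases of Aars, 14.3% are shared with Exosc6 on the same strand, and how reads there were assigned is not stated in the labels. In all 3 genes CSE-KO 1 was the lowest of its group and still far above WT.

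Nars, Tars, Iars, Lars, Sars, Wars and Gars completed the cytosolic genes with a ratio of means above 1.5. There were 10 such genes of 20, where 17.4% of all genes tested were called upward past that ratio. Nars, the asparaginyl enzyme, read 1016, 944 and 934 in the WT libraries against 1757, 1799 and 1792 in the CSE-KO libraries (log2 fold change 0.89, SE 0.03). Tars, the threonyl enzyme, read 827, 798 and 783 against 1414, 1484 and 1489 (log2 fold change 0.86, SE 0.03). Neither gene overlapped between groups, and in both the lowest value of the group was again in CSE-KO 1. Iars, the isoleucyl enzyme, read 1162, 1116 and 1133 against 1902, 1963 and 1964 (log2 fold change 0.77, SE 0.02, adjusted p = 8.0e-10). Lars, which charges leucine and is also known as a leucine sensor of the growth kinase mTORC1, read 1039, 968 and 975 against 1615, 1611 and 1670 (log2 fold change 0.72, SE 0.03). Iars and Lars were the only complex members among these 10 genes.

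Sars, Wars and Gars are free enzymes with known tasks beside charging cytosolic tRNA. Sars, the seryl enzyme, known to act in the nucleus on vessel growth, read 791, 761 and 761 in the WT libraries against 1260, 1243 and 1274 in the CSE-KO libraries (log2 fold change 0.71, SE 0.03, adjusted p = 2.8e-09). Wars, the tryptophanyl enzyme, which interferon gamma is known to induce and a fragment of which restrains vessel growth, read 850, 844 and 827 against 1316, 1312 and 1344 (log2 fold change 0.66, SE 0.03, adjusted p = 2.9e-09). Gars, the glycyl enzyme, whose single gene makes both the cytosolic and the mitochondrial form, read 1073, 1027 and 994 against 1578, 1582 and 1640 (log2 fold change 0.63, SE 0.03). The spread within each group was small beside the difference in each of these genes. Over the cytosolic genes the coefficient of variation of replicates had a median of 2.30% for WT and 2.55% for CSE-KO.

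**Figure D2:**
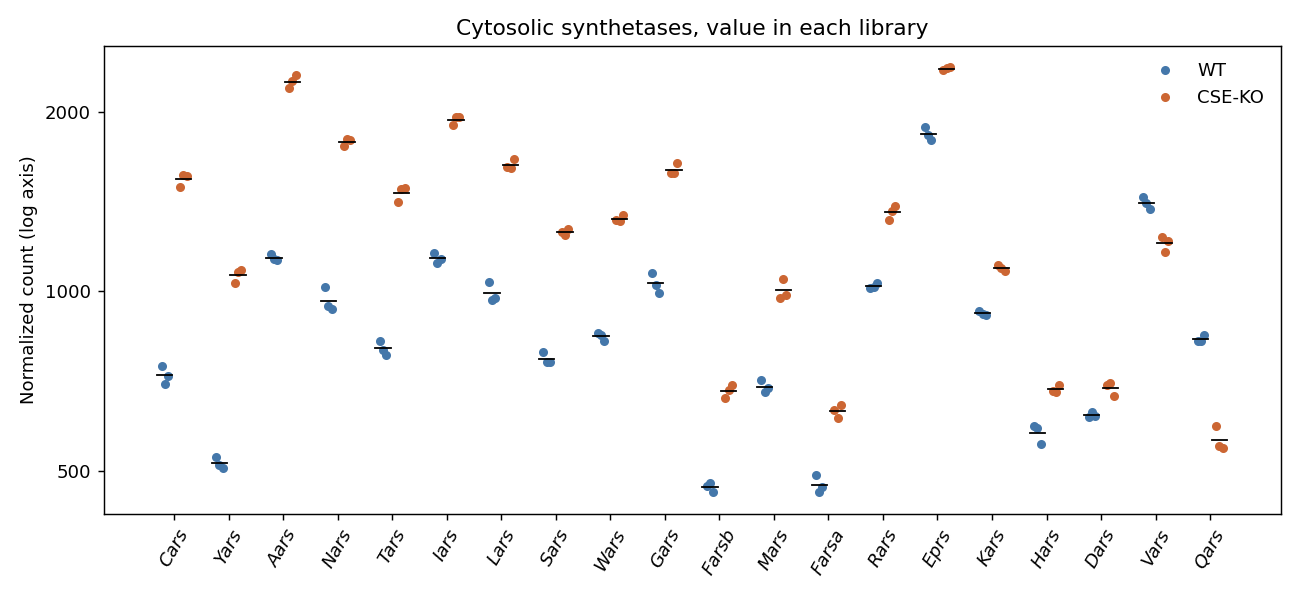
Normalized count of the 20 cytosolic synthetase genes in each library (y axis, log scale), with WT 1 to 3 in blue, CSE-KO 1 to 3 in orange and black bars for group means, ordered by log2 fold change. No gene overlaps between groups, where groups did not overlap in 80.4% of all genes tested, and the CSE-KO points lie above WT in every gene but Vars and Qars.

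Where a RefSeq promoter window was matched, the promoters of the synthetase genes were searched for the letters of the response element that ATF4 binds with C/EBP partners, TGATGNAA on either strand. RefSeq promoter windows (GRCm38.p6, 250 bases before to 50 after the start site) were matched for 12 cytosolic and 14 mitochondrial genes. Of the 10 cytosolic genes with a ratio of means above 1.5, Cars, Nars, Lars and Wars had no matched window and were not searched. The letters were present for 5 of the 12 cytosolic and 0 of the 14 mitochondrial genes, where 4.51% of all 27025 genes and 3.97% of all 32851 windows held them. The 5 genes were Aars, Gars, Iars, Tars and Yars, with log2 fold changes from 0.63 to 1.05. The 7 other matched cytosolic genes ranged from −0.56 to 0.71. A match is a run of letters and not a measured binding site, and its absence from a window says nothing about the factor. The matches are shown because they lie near the start sites of genes with large rises. They are read 5′ to 3′ on the gene's strand with the matched letters in capitals, which stand as TTNCATCA where the match is on the opposite strand.
Aars, chr8:111033700-111033767, plus strand, first matched base 112 bases before the start site: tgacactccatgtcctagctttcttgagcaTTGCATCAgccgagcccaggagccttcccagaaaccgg
Aars, chr8:111033840-111033869, plus strand, from base 10 of the transcript: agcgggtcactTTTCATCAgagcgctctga
Gars, chr6:55037941-55038000, plus strand, 30 bases before the start site: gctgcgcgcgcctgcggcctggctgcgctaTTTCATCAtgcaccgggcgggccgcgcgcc
Iars, chr13:49682126-49682155, plus strand, from base 8 of the transcript: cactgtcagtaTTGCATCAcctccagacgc
Tars, chr15:11399659-11399703, minus strand, 15 bases before the start site: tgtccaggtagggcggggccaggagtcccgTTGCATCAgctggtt
Yars, chr4:129189895-129189924, plus strand, from base 4 of the transcript: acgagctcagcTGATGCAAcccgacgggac
Aars had a match on each side of its RefSeq start site, and Yars was the gene whose match lay on its own strand. The gene spans given above begin earlier than the RefSeq start sites, at 111033144 for Aars and 129189760 for Yars. The upstream match of Aars therefore lies inside its annotated span. In Aars (upstream match), Iars and Tars the letters were TTGCATCA, the same as those of Yars read on the other strand.

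The remaining cytosolic rises were smaller. The alpha and beta subunits of the phenylalanyl enzyme, Farsa and Farsb, both rose without overlap of the groups. Farsa read 491, 460 and 470 in the WT libraries against 633, 612 and 645 in the CSE-KO libraries (log2 fold change 0.41, SE 0.04), and Farsb read 471, 476 and 460 against 662, 684 and 697 (log2 fold change 0.54, SE 0.03). Mars, the methionyl enzyme, read 710, 678 and 689 against 975, 1049 and 988 (log2 fold change 0.54, SE 0.03). Of the exonic bases of Mars, 2.0% lie opposite exons of Ddit3, the stress factor CHOP, which went from 54.3 ± 7.51 to 345 ± 7.09 (SD, n = 3). The kit was stranded, but the strand setting of the counting is not stated in the labels. Hars, the histidyl enzyme, read 595, 589 and 554 against 681, 678 and 697 (log2 fold change 0.24, SE 0.04, adjusted p = 8.6e-05).

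The median change of the multisynthetase complex members was below that of the free enzymes, a difference that was described and not tested. Of the 8 complex members 7 rose, with a median log2 fold change of 0.39, and 2 of them passed a ratio of 1.5. Of the 12 genes of free enzymes 11 rose, with a median of 0.68, and 8 passed that ratio. Of all genes tested 38.3% were called upward, and 17.4% were called upward past that ratio. Eprs, a double enzyme for glutamate and proline, read 1886, 1832 and 1795 in the WT libraries against 2349, 2369 and 2379 in the CSE-KO libraries (log2 fold change 0.36, SE 0.02). Rars, the arginyl enzyme, read 1012, 1017 and 1032 against 1316, 1366 and 1390 (log2 fold change 0.41, SE 0.03). Kars, the lysyl enzyme, which like Gars serves both compartments from a single gene, read 926, 918 and 914 against 1107, 1096 and 1081 (log2 fold change 0.25, SE 0.02, adjusted p = 3.2e-06). Dars, the aspartyl enzyme, had the smallest rise of the cytosolic genes, with 616, 628 and 618 against 697, 701 and 668 (log2 fold change 0.15, SE 0.03, adjusted p = 0.0013). Rises as small as those of Dars, Hars and Kars did not pass a test against a fold of 1.2 (adjusted p between 0.97 and 1, and 2.7e-07 to 1 over all alternatives).

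The complex is held together by scaffold proteins that charge no tRNA. Aimp1 rose from 340.0 ± 15.5 to 385 ± 21.7 and Eef1e1 from 197 ± 8.72 to 297 ± 15.7, and Aimp2 fell from 325 ± 11.8 to 285 ± 7.37 (SD, n = 3). The scaffold genes therefore did not share a direction. By structural class, 11 of 18 class I genes rose and 6 fell, and 10 of 17 class II genes rose and 3 fell, beside 77.4% of all genes tested that were called. Eprs belongs to both classes and is in neither count.

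Qars and Vars were the cytosolic genes that fell. Qars, the glutaminyl enzyme of the complex (ENSMUSG00000032604, chromosome 9, 108507706 to 108515941), read 827, 824 and 845 in the WT libraries against 594, 551 and 546 in the CSE-KO libraries. Every CSE-KO library was below every WT library, and the ratio of means was 0.677 (log2 fold change −0.56, SE 0.04, adjusted p = 1.3e-07). No mitochondrial form of this enzyme is known, because mitochondria charge glutamine tRNA with glutamate and convert it afterwards. Vars, the valyl enzyme, read 1441, 1406 and 1375 against 1234, 1165 and 1217 (log2 fold change −0.22, SE 0.03, adjusted p = 2.9e-05). This fall did not pass a test against a fold of 1.2 (adjusted p = 1, and 5.5e-06 to 1 over all alternatives). In both genes the highest value of the group was in CSE-KO 1.

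Iars2, the mitochondrial isoleucyl enzyme (ENSMUSG00000026618, chromosome 1, 185284726 to 185329396), had the largest fall of all 36 genes. It read 1212, 1190 and 1169 in the WT libraries against 696, 585 and 624 in the CSE-KO libraries (log2 fold change −0.91, SE 0.06, adjusted p = 1.3e-06). Of its exonic bases, 24.2% lie opposite exons of Rab3gap2 or 2010103J01Rik. Rab3gap2 averaged 1524 ± 33.2 for WT and 1568 ± 43.0 for CSE-KO (SD, n = 3) and was not called. Iars, the cytosolic partner of Iars2, moved the other way. The ratio of Iars to Iars2 values was 0.959, 0.938 and 0.969 in WT and 2.73, 3.35 and 3.15 in CSE-KO.

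Vars2, Tars2 and Aars2 also had a ratio of means under 1/1.5, which with Iars2 made 4 of 16 mitochondrial genes, where 20.9% of all genes tested were called downward past that ratio. Vars2, the valyl enzyme, read 383, 368 and 398 in the WT libraries against 247, 221 and 260 in the CSE-KO libraries (log2 fold change −0.66, SE 0.06). Tars2, the threonyl enzyme, read 535, 549 and 556 against 372, 340 and 337 (log2 fold change −0.65, SE 0.05). Aars2, the alanyl enzyme, read 280, 301 and 291 against 215, 184 and 159 (log2 fold change −0.65, SE 0.10, adjusted p = 0.00015). The CSE-KO libraries of Aars2 were spread more widely than those of the cytosolic genes, yet none reached WT. Over the mitochondrial genes, which had lower values, the same median was 3.87% for WT and 6.99% for CSE-KO.

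Cars2, the mitochondrial cysteinyl enzyme, is known also to make cysteine persulfides. It read 198, 195 and 192 in the WT libraries against 148, 113 and 129 in the CSE-KO libraries (log2 fold change −0.59, SE 0.10, adjusted p = 0.00016), opposite to Cars. Lars2, the leucyl enzyme, read 432, 440 and 452 against 313, 309 and 293 (log2 fold change −0.53, SE 0.04). Nars2, the asparaginyl enzyme, read 160, 159 and 142 against 134, 116 and 110 (log2 fold change −0.36, SE 0.10, adjusted p = 0.0050). All 3 fell without overlap of the groups, and the highest value of the group was in CSE-KO 1 each time. Nars2 lost its call against a fold of 1.2 (adjusted p = 0.29, and 0.00060 to 0.29 over all alternatives). With WT 1 to 3 averaged to 1 sample its log2 fold change was −0.36, in a fit that holds no spread among WT libraries.

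The 4 mitochondrial genes that rose were Ears2, Mars2, Yars2 and Rars2. Ears2, which charges both glutamate and glutamine tRNA of mitochondria with glutamate (chromosome 7, 122037213 to 122067263), read 101, 109 and 99 in the WT libraries against 164, 169 and 147 in the CSE-KO libraries (log2 fold change 0.63, SE 0.09, adjusted p = 4.9e-05). Mars2, the methionyl enzyme, read 197, 212 and 201 against 285, 314 and 264 (log2 fold change 0.50, SE 0.07). Yars2, the tyrosyl enzyme, read 244, 191 and 220 against 281, 302 and 280 (log2 fold change 0.40, SE 0.08, adjusted p = 0.0011). These 3 rose in every CSE-KO library over every WT library. Yars2 did not pass the test against a fold of 1.2 (adjusted p = 0.12, and 0.00030 to 0.12 over all alternatives). Rars2, the arginyl enzyme, read 238, 248 and 258 against 287, 284 and 268 (log2 fold change 0.17, SE 0.06, adjusted p = 0.014). Rars2 lost its call without WT 1 (adjusted p = 0.057) and against a fold of 1.2 (adjusted p = 1, and 0.0018 to 1 over all alternatives).

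The other 5 mitochondrial genes did not pass the test. Hars2, the histidyl enzyme, read 263, 274 and 271 in the WT libraries against 276, 301 and 284 in the CSE-KO libraries (log2 fold change 0.09, SE 0.05, adjusted p = 0.14). It lies head to head with Hars on chromosome 18, and 4.6% of its exonic bases lie opposite those of Hars. Sars2 read 145, 168 and 171 against 159, 171 and 183 (adjusted p = 0.38), and Fars2 read 169, 179 and 178 against 167, 150 and 171 (adjusted p = 0.20). These were the members whose groups overlapped, whereas groups did not overlap in 80.4% of all genes tested. Wars2 read 172, 176 and 194 against 148, 162 and 170 (log2 fold change −0.18, adjusted p = 0.063), and Pars2, the prolyl enzyme, at 80, 70 and 83 against 66, 64 and 68 (log2 fold change −0.23, adjusted p = 0.089). Wars2 passed without CSE-KO 3 (adjusted p = 0.039, and 0.039 to 1 over all alternatives), Hars2 with equal totals (adjusted p = 0.017, and 0.017 to 1) and Pars2 with no trend and no robust variances (adjusted p = 0.032, and 0.032 to 0.90).

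**Figure D3:**
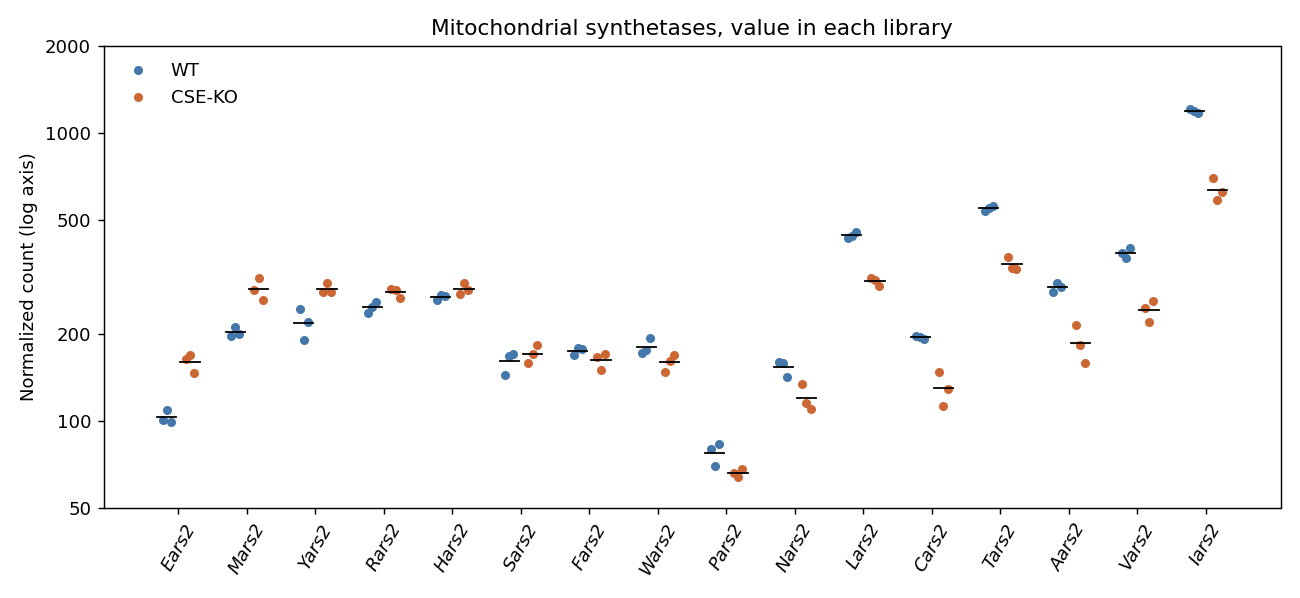
Normalized count of the 16 mitochondrial synthetase genes in each library (y axis, log scale), with WT 1 to 3 in blue, CSE-KO 1 to 3 in orange and black bars for group means, ordered by log2 fold change. The CSE-KO points lie above WT from Ears2 to Hars2, overlap in Sars2 and Fars2 and lie below WT from Wars2 to Iars2.

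For 13 amino acids the cytosolic and the mitochondrial enzyme come from separate genes of the same root symbol, which allows a comparison within each library. The ratio of the values is not corrected for gene length, so its change between groups is read and not its level. In 11 of 13 pairs the ratio was higher in every CSE-KO library than in every WT library, and in 2, Mars to Mars2 and Hars to Hars2, the groups overlapped. Groups did not overlap, in either direction, in 80.4% of all single genes tested, so separation of a pair without regard to direction is near that share. Upward separation was seen in 5500 of the 13750 single genes tested. Both shares are for single genes, and none was computed for ratios of 2 genes. The largest shifts were in the cysteine, isoleucine and alanine pairs, of 3.22-fold, 3.21-fold and 3.10-fold. The ratio of Cars to Cars2 was 3.78, 3.57 and 3.74 in WT and 10.1, 13.8 and 12.1 in CSE-KO. The ratio of Aars to Aars2 was 4.12, 3.76 and 3.88 against 10.2, 12.2 and 14.5. The threonine pair shifted 2.85-fold, the leucine pair 2.38-fold and the asparagine pair 2.37-fold. Exact permutation tests of the log ratio, two-sided, gave p = 0.1 in these 11 pairs, which is the smallest that 3 against 3 libraries allow, and an adjusted p of 0.118 over the 13 pairs. For Mars to Mars2 the ratio was 3.60, 3.19 and 3.42 against 3.42, 3.34 and 3.74, where both genes had risen.

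**Figure D4:**
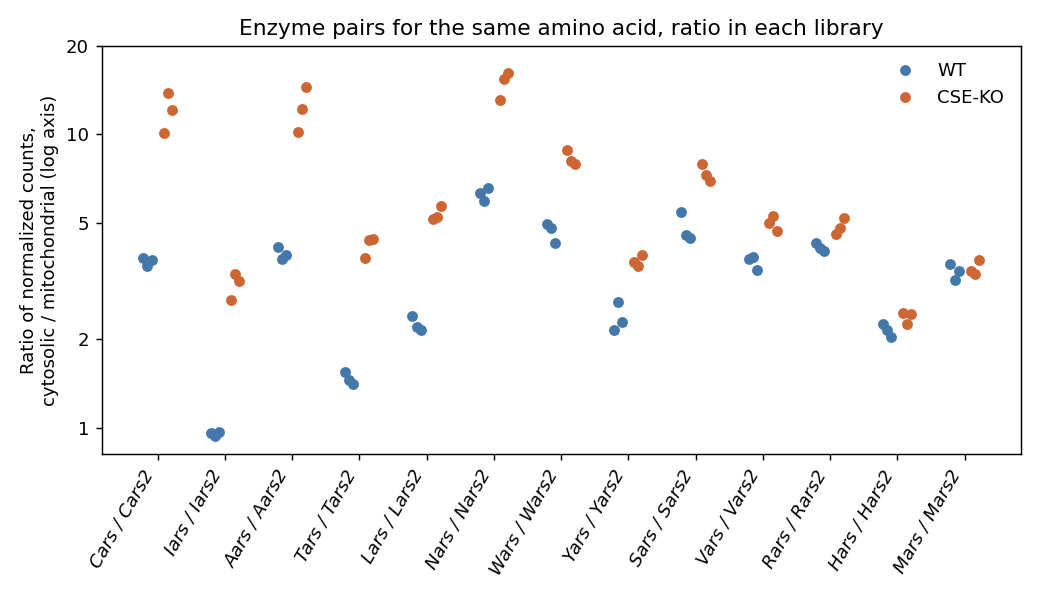
Ratio of the normalized count of the cytosolic gene to that of the mitochondrial gene for the same amino acid (y axis, log scale) in each library, WT in blue and CSE-KO in orange, ordered by the shift. The ratio is higher in all CSE-KO libraries from Cars to Rars, 11 of 13 pairs, and overlaps for Hars and Mars.

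Levels were compared between genes as normalized counts per 1000 annotated exonic bases. In WT the cytosolic genes ran from 86.7 (Yars) to 331 (Gars) with a median of 182, and the mitochondrial genes from 18.0 (Mars2) to 134 (Iars2) with a median of 44.2. In CSE-KO the cytosolic genes ran from 85.8 (Qars) to 513 (Gars) with a median of 247, and the mitochondrial genes from 17.2 (Nars2) to 101 (Rars2) with a median of 35.0. In each group only 2 of the 16 mitochondrial genes stood above the lowest cytosolic gene. Yars was the lowest cytosolic gene in WT and reached 179 in CSE-KO, whereas Qars went from 127 to 85.8. The exonic length counts every annotated exon, whether or not it was used in these cells.

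Other genes of tRNA charging moved in both directions, as did all genes tested, of which 38.3% were called upward and 39.0% downward. The tRNA exporter Xpot rose from 1019 ± 10.2 to 1635 ± 66.0 (log2 fold change 0.68, SE 0.03), and Trnt1, which adds the CCA end to tRNA, rose by 0.52 on the log2 scale. Of 4 partners of mitochondrial charging, 0 rose and 1 fell in limma, the same counts as at an unadjusted p under 0.05. The fall was in Gatc, a subunit of the amidotransferase that makes glutamine tRNA after Ears2, with a log2 fold change of −0.30 (adjusted p = 0.0010). The others had adjusted p values of 0.069 (Gatb), 0.65 (Qrsl1) and 0.086 (Mtfmt). Of 6 tested synthetase-like genes 2 rose and 3 fell, where 77.4% of all genes tested were called. Tarsl2, a second cytosolic threonyl enzyme, fell from 299 ± 11.9 to 128 ± 16.8 (log2 fold change −1.23, SE 0.09) while Tars rose. Dtd1, a proofreading enzyme that removes D-amino acids from tRNA, fell by 0.59 on the log2 scale. Sepsecs, the last enzyme of selenocysteine tRNA synthesis, rose from 184 ± 25.1 to 311 ± 14.6, and Prorsd1 rose by 0.55 on the log2 scale.

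The transcript of the sensor of uncharged tRNA was lower in CSE-KO, while its protein and activity were not measured. Eif2ak4, which encodes GCN2, fell from 637 ± 15.6 to 407 ± 3.79, and its activator Gcn1 fell from 1507 ± 40.2 to 1179.7 ± 41.6. Impact, an inhibitor of GCN2, rose from 329.7 ± 15.5 to 1089 ± 62.7, with 341, 336 and 312 in WT and 1018, 1112 and 1137 in CSE-KO. Atf4 rose by 0.48 on the log2 scale.

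CSE-KO 1 stood nearer to WT than the other CSE-KO libraries in many genes of the table (56.3% of those tested). It was the nearest in 13 of the 20 cytosolic and 8 of the 16 mitochondrial genes. Without it 18 cytosolic genes rose and 2 fell, and 4 mitochondrial genes rose and 7 fell, the same counts as with all libraries. A further fit averaged WT 1 to 3, and likewise CSE-KO 2 and 3, to 1 sample each. Whether the averaged libraries differ by more than counting noise was not decided. The median log2 fold change was then 0.58 for the cytosolic and −0.22 for the mitochondrial genes. Nars2 came to −0.32 and Rars2 to 0.18. With 1 WT sample that fit holds no spread among WT libraries, so its calls are not read.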

How the data were processed

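The authors' deposited table gave a whole-number score per gene and library, read here as a normalized count, meaning reads per gene scaled by a factor for each library and then rounded. This unit was inferred from the values, since neither header nor label gives it. The submitters' processing notes name the build mm10, STAR 2.7.3a, featureCounts 1.6.5, Trimmomatic 0.39, Picard 2.21.7 and DESeq2 1.26.0, without saying what each was used for. Per the labels' protocols, stranded mRNA libraries from 300 ng of total RNA were read as 75 bp single ends.

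Values were taken as log2(value + 0.5), so fold changes of low genes are understated. Genes that reached 10 in 3 or more libraries were fitted with limma 3.58.1 in R 4.3.3 (group term, mean trend, robust variances, two-sided, Benjamini-Hochberg over all genes). The fit was tested on simulated data, and 20 alternatives of scaling, filter, pseudocount, variance model and libraries were run. Exonic lengths came from GENCODE mouse release M21, which held 18940 of the 18956 IDs. Promoter windows came from RefSeq. Members, lists and named genes (all members, Cth, and up to 2 rises and 2 falls of each charging list) were chosen with earlier results of these data known. The falls among genes of tRNA export and maturation are not reported here. The depth in reads is unknown.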

Additional observations from a re-analysis of the deposited data

How the results depend on the processing

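Under 20 alternatives no member reversed its direction, and 26 of 36 stayed on their side of the threshold in all of them. A test against a fold of 1.2 called 6711 genes in place of 10639, with 15 cytosolic genes higher and 1 lower, and 2 mitochondrial genes higher and 6 lower. This test asks for a larger change by construction. The cytosolic median of 0.59 was 0.66 with equal totals, 0.64 with upper-quartile scaling and 0.70 after a correction for reads that would be lost at shared start positions, a step that the sources do not state was taken. The mitochondrial median of −0.20 was −0.13 with equal totals and −0.15 with upper-quartile scaling, and ran from −0.25 to −0.15 when each library was left out in turn. The cytosolic median then ran from 0.57 to 0.61, with 18 genes higher and 2 lower each time. The replicate numbers did not pair the libraries (correlations of same-numbered libraries −0.000786, 0.020 and 0.0109). With the replicate number as a block 10440 genes were called, and no member's call changed. The depth in reads is unknown, so its part in the precision of each gene was not measured.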

Other observations

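The machinery that makes tRNA and the factors that use it were also measured. RNA polymerase III and its factors transcribe tRNA genes among others, and not every gene of this list serves tRNA genes. Of the 22 genes 7 rose, 8 fell and 7 did not pass, where 77.4% of all genes tested were called. The median log2 fold change was 0.04, beside 0.001 for all genes tested. The largest rises were in the initiation factor subunit Brf2 (0.73) and the polymerase subunit Polr3d (0.71), and the largest falls in Gtf3a (−1.13), which serves 5S rRNA genes, and Gtf3c2 (−0.51). Brf1, named beside Brf2 after its values were seen, was called lower in CSE-KO (−0.15). The summed value of the 22 genes was 9964 to 10105 in WT and 10024 to 10147 in CSE-KO, which overlap.

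Of 6 cytosolic elongation genes 2 rose and 2 fell, where 77.4% of all genes tested were called. The rises were in Eef1d and Eef1g, by 0.15 and 0.12 on the log2 scale. Eef2k, the kinase that slows elongation, read 513, 536 and 479 in the WT libraries against 201, 190 and 203 in the CSE-KO libraries (log2 fold change −1.36, SE 0.05), while its substrate Eef2 moved by −0.09. Eef1a1, which carries charged tRNA to the ribosome and was picked after its values were seen, read 904, 864 and 864 in the WT libraries against 906, 902 and 906 in the CSE-KO libraries, which failed the test (limma adjusted p = 0.17). In mitochondria the matching factor Tufm fell by 0.16 on the log2 scale and Gfm2, a ribosome recycling factor, rose by 0.41.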
